A study of Mus musculus with 18 samples.

Results

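The insulin-like growth factor (IGF) axis was described here in MEFs (mouse embryonic fibroblasts) through 10 of the 55487 genes counted. They were taken by gene symbol and are the ligands Igf1 and Igf2, the receptors Igf1r and Insr, the receptor substrates Irs1 and Irs2, and the binding proteins Igfbp3, Igfbp4, Igfbp5 and Igfbp6. Of these, 9 passed the filter on low counts and were among the 15381 genes tested, and Igf2 did not pass. RNA was sequenced from wild-type MEFs, a line the study obtained from a cell bank, in high-glucose medium with fetal bovine serum. Scm held the serum that left MEFs sensitive to ferroptosis, an iron-dependent cell death through lipid peroxidation, and Rcm held the serum that conferred resistance. There were 6 groups of 3 libraries. The steady groups were kept in Scm or in Rcm. The S-Rcm groups began in Scm and spent the last 12 h or 24 h in Rcm. The R-Scm groups began in Rcm and spent the same times in Scm. No gene was edited, no ferroptosis inducer is named for these libraries, and none of the 6 groups was kept without serum. The study's methods describe its cell culture experiments in general as independently repeated. The labels do not say which cultures the libraries of a group came from, so p-values measure the spread between these libraries.

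IGF1, IGF2 and insulin bind receptor tyrosine kinases on the cell surface, which phosphorylate the scaffold proteins IRS1 and IRS2 and through them activate PI3K, AKT and mTOR, a pathway of growth, survival and lipid synthesis. IGF binding proteins are secreted proteins that hold IGFs outside the cell, and proteases that cut them release the ligand. Serum carries IGFs and binding proteins of its own, which RNA-seq of the cells does not measure, and fibroblasts in culture are a common source of binding proteins.

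A gene was called in a comparison of groups where its absolute log2 fold change exceeded 0.58 and its p, from edgeR's quasi-likelihood test with Benjamini-Hochberg adjustment over the 15381 genes, was under 0.05. Of the members, 3 were called in at least 1 of 11 comparisons, namely Irs1, Igfbp3 and Igfbp4. The share of all genes called is given with each comparison further on. It was not computed over the 11 together, so the count of 3 has no background and is not read as a result. The 250 bases before their RefSeq transcription start are shown because they are the promoters of the members called. Igfbp3 and Igfbp4 were called only in a step from 12 h to 24 h. Their calls were lost in all or some of the fits that left out 1 library, as given further on. The sequences are written 5′ to 3′ on the strand of the gene, with coordinates on GRCm38.p6. Capitals mark matches to the 8 motifs searched on both strands.
Irs1, chr1:82291440-82291689, minus strand: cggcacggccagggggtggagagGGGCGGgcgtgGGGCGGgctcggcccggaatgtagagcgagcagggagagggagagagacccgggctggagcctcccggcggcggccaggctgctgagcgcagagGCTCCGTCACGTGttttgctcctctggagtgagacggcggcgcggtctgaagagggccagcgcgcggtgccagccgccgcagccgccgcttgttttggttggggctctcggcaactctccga
Igfbp3, chr11:7213924-7214173, minus strand: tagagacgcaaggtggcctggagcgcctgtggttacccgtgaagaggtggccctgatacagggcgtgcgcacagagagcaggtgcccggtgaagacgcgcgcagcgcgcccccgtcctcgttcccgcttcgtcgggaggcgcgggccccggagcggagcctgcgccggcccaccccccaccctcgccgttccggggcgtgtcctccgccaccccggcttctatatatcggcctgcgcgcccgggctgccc
Igfbp4, chr11:99040994-99041243, plus strand: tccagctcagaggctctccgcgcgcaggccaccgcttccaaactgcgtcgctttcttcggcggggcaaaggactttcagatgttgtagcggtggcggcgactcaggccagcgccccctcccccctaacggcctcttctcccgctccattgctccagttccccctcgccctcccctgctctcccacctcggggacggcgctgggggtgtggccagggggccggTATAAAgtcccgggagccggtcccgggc

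The motifs, searched from 250 bases before to 50 bases after the start in 32851 RefSeq promoters, were an SREBP element (TCACNCCAC, in 1.24% of all promoters), a FOXO element (GTAAACA, 3.65%), the core of the antioxidant response element (TGACNNNGC, 12.4%), an ER stress element (0.119%), a cAMP response element (TGACGTCA, 1.79%), an E-box (CACGTG, 7.15%), a GC box (GGGCGG, 35.7%) and a TATA box (TATAAA, 13.6%). In the Irs1 promoter, GC boxes began at positions -227 and -216 and an E-box at -115, counted from the start site. A match to the antioxidant response element core on the opposite strand began at -122 and ended inside that E-box. The Igfbp4 promoter held a TATA box at -28. None of the 8 motifs was found in this window of Igfbp3, Igfbp5 or Igf1, while Igf1r had GC boxes at -43 and -26 and Igfbp6 a TATA box at -148 on the opposite strand. The search took the letters of each motif exactly, so variants were not counted. The Igfbp3 sequence above holds TATATAT near its end, which is not a match to TATAAA. A lack of matches here is therefore not a lack of TATA-like sequence. Promoters were found for 9 of the 10 members, Insr being the other.

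The promoter of Irs2, the paralog of Irs1, also held an E-box, at -44 from its RefSeq start. The GENCODE annotation, used for gene positions, has the 5′ end of Irs2 further downstream, at 11008458. The distance of this E-box from the start thus depends on the annotation. As in Irs1, a match to the antioxidant response element core on the opposite strand, here from -51, ended inside the E-box. A GC box began at -85. The 30 bases around both E-boxes are set side by side because both promoters hold this motif, with the E-box in capitals.
Irs1, chr1:82291537-82291566, minus strand: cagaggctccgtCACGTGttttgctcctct
Irs2, chr8:11008956-11008985, minus strand: gtaacgcagagtCACGTGttgttttgctct
Between them, 19 of 30 positions were identical, and they shared the run of 10 bases GTCACGTGTT, which stood on the gene's strand in 16 of all promoters (0.0487%). Both windows were placed on the E-box, so its bases match by construction. The run was picked as the longest shared by this pair, so its share does not measure how alike they are. A match to a motif describes the sequence and is not a measured binding site. The RNA of both genes is compared further on.

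Levels are given in CPM, that is counts at a TMM-normalized library size of 1000000, and per kilobase of exon where genes are compared with each other. Total counts per library ran from 14534906 to 20313715, and libraries of the same group differed by more than counting error (chi-square per degree of freedom 10.2 to 45.1). Of the fibroblast markers, 11 of 12 had a median above 1 CPM, among them Col1a1, Col1a2, Pdgfra and Vim, and Lum was at 0 to 3 counts. Markers of epithelial and endothelial cells had medians below 1 CPM, and of 6 immune, 6 muscle and 5 adipocyte markers 1 each exceeded it (Cd68, Acta1 and Fabp4). Of 5 neural markers 4 exceeded 1 CPM, and Sox2 stood at 37.4 to 77.4 CPM. R-Scm 24 h replicate 1 stood apart from its group. Without it, the number of genes called between R-Scm 24 h and Rcm rose from 58 to 501, and called results of this group are also given without it. Leaving out Rcm replicate 3 raised the number called between Rcm and Scm from 354 to 574. Leaving out any other library of Scm or Rcm lowered it, to between 178 and 196.

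The ligand genes were close to silent. Igf1, on chromosome 10 (GRCm38, 87858265 to 87937042, plus strand), encodes the ligand that growth hormone induces in liver and many other tissues. It had 10, 7 and 3 counts in the Scm libraries and 17, 5 and 10 in those of Rcm. It had 24, 12 and 15 counts at S-Rcm 12 h and 21, 10 and 10 at S-Rcm 24 h. In the opposite exchange, the counts were 18, 20 and 13 at R-Scm 12 h and 27, 12 and 18 at R-Scm 24 h. No library passed 1.59 CPM, and the 6 groups, from a mean of 0.409 CPM in Scm to 1.09 CPM in R-Scm 24 h, each overlapped with the next in order. The log2 fold change in S-Rcm 12 h against Scm was 1.19 (95% interval 0.15 to 2.23, adjusted p = 0.273), and no comparison of Igf1 passed. The antisense gene Igf1os overlaps Igf1, and the use of strand in counting is not given in the sources used here, so their reads cannot be told apart.

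Igf2, on chromosome 7 (142650766 to 142666816, minus strand), is an imprinted fetal growth factor gene. It had 6 counts in all 18 libraries together. All libraries of Scm, Rcm and S-Rcm 12 h were at 0, which allows up to 3 counts per library, and the other groups had at most 2 counts in a library. H19, the imprinted noncoding neighbour of Igf2, had 8 to 51 counts. The insulin genes Ins1 and Ins2 were at 0 counts in every library.

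The receptors were expressed. Igf1r, on chromosome 7 (67952827 to 68233668, plus strand), encodes the IGF1 receptor. Its CPM were 177, 136 and 157 in Scm and 187, 166 and 151 in Rcm. They were 120, 148 and 118 at S-Rcm 12 h and 172, 148 and 139 at S-Rcm 24 h. In R-Scm, they were 143, 145 and 156 at 12 h and 187, 172 and 165 at 24 h. Every group overlapped with the next in order, from S-Rcm 12 h to R-Scm 24 h. The log2 fold change of Igf1r between Rcm and Scm was 0.10, with a 95% interval of -0.15 to 0.35, and the farthest from 0 in the 5 comparisons with a starting or steady group was -0.29 in S-Rcm 12 h (-0.54 to -0.04, adjusted p = 0.270).

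Insr, on chromosome 8 (3122061 to 3279617, minus strand), encodes the insulin receptor. In the steady groups its CPM were 39.9, 31.0 and 36.7 in Scm and 23.1, 37.0 and 33.1 in Rcm. Within each exchange group the libraries split. The libraries were at 15.3, 38.3 and 13.8 CPM in S-Rcm 12 h and 32.9, 40.2 and 14.6 in S-Rcm 24 h. In R-Scm 12 h they were at 36.1, 17 and 15.3 CPM, and in R-Scm 24 h at 30.8, 15.2 and 34.3. Each exchange group thus held libraries at 13.8 to 17 CPM beside libraries of 30.8 to 40.2 CPM, with none in between. The pooled SD of log2 CPM within groups was 0.61, and only 161 of 9829 genes with a mean of at least 10 CPM had a larger one (1.64%). With that spread, the 95% intervals of the log2 fold changes were wide, from -1.19 to 0.77 in Rcm against Scm and from -1.66 to 0.31 in S-Rcm 12 h against Scm. No comparison of Insr passed. The libraries with low values had 231 to 330 counts of Insr. The genes Vmn2r-ps88 and Gm16180 lie within Insr on the opposite strand.

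Per kilobase of exon, Igf1r was above Insr in all 18 libraries, by 3.01 to 9.28 times (median 4.12), and the ratio was highest in R-Scm 24 h replicate 2, where Insr was at 15.2 CPM. Igf2r, the scavenger receptor that takes IGF2 to lysosomes, was at 19.7 ± 2.26 CPM per kilobase (SD, n = 18), above the 9.22 ± 1.2 of Igf1r. Insrr, the insulin receptor-related receptor, had at most 3 counts. The plot of levels per exon length shows these genes with the substrates and binding proteins.

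**Figure D1:**
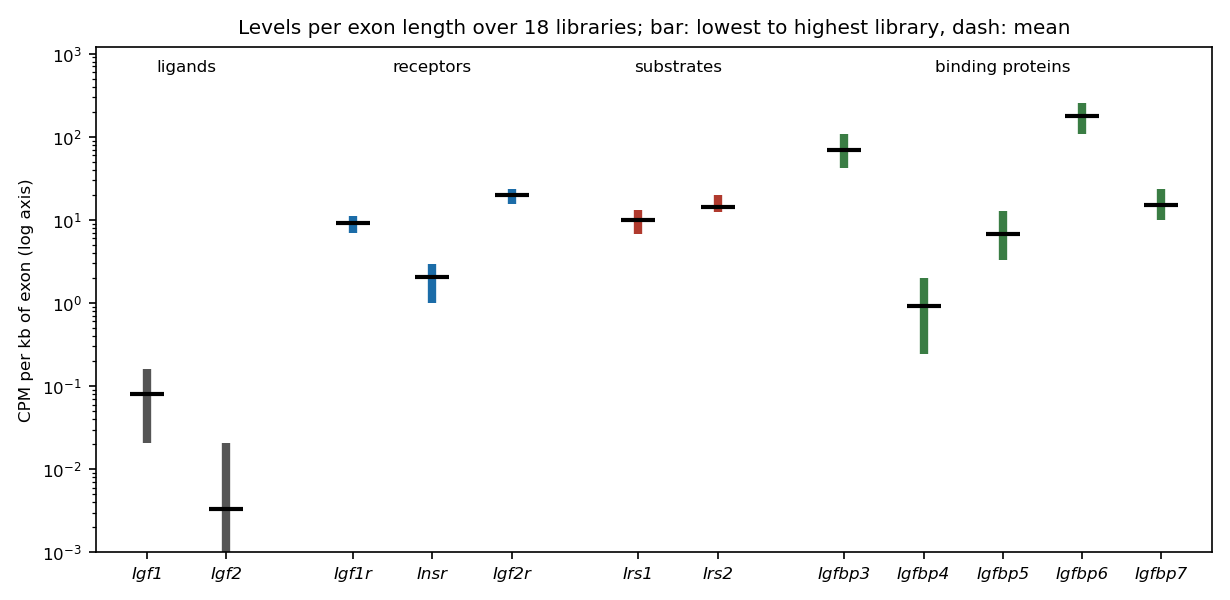
Level per exon length (CPM per kb, log axis) of the ligands, receptors, substrates and binding proteins over the 18 libraries. Bars run from the lowest to the highest library and dashes mark the mean. Igf2 reaches 0, which the log axis cuts at its lower end. Igfbp6 is the highest of the genes shown, with a mean of 180 CPM per kb, and Igf1, at 0.0815, lies below Igf1r, Insr, Igf2r, Irs1 and Irs2.

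Irs1 was the 1 member called between the steady media. It lies on chromosome 1 (82233101 to 82291416, minus strand) and encodes the substrate that couples both receptors to PI3K. Its CPM were 72.1, 62.3 and 68.9 in Scm and 121, 117 and 111 in Rcm, without overlap. Irs1 was 1.72-fold higher in Rcm (log2 fold change 0.78, SE 0.13, adjusted p = 0.00205, edgeR's quasi-likelihood test). In this comparison 1 of the 9 members tested was called higher and 0 lower, while 2.3% of all genes tested were called in either direction and 1.67% higher. In 3 members the libraries of the steady media did not overlap (Irs1, Igfbp3 and Igfbp5), beside 23.9% of all genes. Irs1 was called under every alternative tried, leaving out any of the 6 libraries included, with log2 fold changes of 0.72 to 0.82.

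After the exchanges Irs1 lay between the steady groups. It was at 74.0, 93.4 and 72.4 CPM at S-Rcm 12 h and at 106, 99.7 and 90.9 CPM at S-Rcm 24 h, the 24 h libraries above all of Scm and below all of Rcm. In the opposite direction it was at 87.5, 91.4 and 89.5 CPM at R-Scm 12 h, below every Rcm library and above every Scm library. At R-Scm 24 h it was at 116, 84.7 and 82.2 CPM, replicate 1 being the high one. In order of means, Scm was lowest, then came S-Rcm 12 h and R-Scm 12 h, followed by R-Scm 24 h, next S-Rcm 24 h, and Rcm was highest. Of these neighbours only Scm and S-Rcm 12 h, and S-Rcm 24 h and Rcm, did not overlap. None of the changes from the starting medium passed both thresholds. The log2 fold change was 0.24 (adjusted p = 0.407) at S-Rcm 12 h and 0.55 (SE 0.13, adjusted p = 0.0755) at S-Rcm 24 h against Scm, and -0.38 (adjusted p = 0.102) at R-Scm 12 h and -0.30 (adjusted p = 0.390) at R-Scm 24 h against Rcm. Without R-Scm 24 h replicate 1 the last value was -0.48 (adjusted p = 0.0207), short of the fold threshold.

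The opposite exchanges were compared directly, as the change in R-Scm against Rcm minus the change in S-Rcm against Scm. For Irs1 at 24 h this difference was -0.85 (SE 0.18, adjusted p = 0.0228), and it was the 1 member of 9 called, beside 1.37% of all genes. The call was lost in 8 of 12 fits that left out 1 library (replicates 2 and 3 of Scm, 1 and 2 of S-Rcm 24 h, 1 and 2 of Rcm, 2 and 3 of R-Scm 24 h), in which the difference stayed between -0.86 and -0.73 with adjusted p of 0.0541 to 0.0872. The whole range over the 12 fits was -1.02 to -0.73, and without R-Scm 24 h replicate 1 the difference was -1.02. At 12 h the difference was -0.62 (SE 0.18, adjusted p = 0.0905), and 0 of 9 members were called beside 2.03% of all genes. Each of these differences contains, with its sign turned, that of Rcm against Scm, which was 0.78 for Irs1. Between the exchanged groups themselves, mean CPM of Irs1 was 89.4 in R-Scm and 80.0 in S-Rcm at 12 h. At 24 h these means were 94.4 and 99.0 CPM. The exchanged groups were also set against the group that had always been in their new medium. Irs1 was 0.48 higher on the log2 scale in R-Scm 24 h than in Scm (adjusted p = 0.116), a value of 0.30 when R-Scm 24 h replicate 1 was left out (adjusted p = 0.284), and in S-Rcm 24 h against Rcm the log2 fold change was -0.23 (95% interval -0.50 to 0.03, adjusted p = 0.714). In these 2 comparisons 0 of 9 members were called, beside 0.592% and 0.221% of all genes.

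Some marker levels also differed between the steady media. The summed level of the 5 neural markers was 143 to 145 CPM in Scm and stood at 108 to 128 CPM in Rcm, and that of the 12 fibroblast markers 10400 to 10790 CPM in Scm and 12590 to 13050 CPM in Rcm. Of the neural list, Gfap was at 0 to 12 counts per library. Sox2 was lower in Rcm (46.7 ± 6.72 CPM) than in Scm (74.4 ± 4.41 CPM, SD, n = 3), opposite to Irs1. Without Sox2 the neural sum was 65.3 to 75.5 CPM in Scm and 65.1 to 73.8 CPM in Rcm, overlapping. The part of the fibroblast markers and of Sox2 in the result was not tested. In bulk RNA, fewer cells that express a gene and less RNA of it per cell cannot be told apart. Over the 18 libraries the genes whose log2 CPM followed Irs1 most closely, of 13534 genes compared, were Adamts1 (Pearson's r 0.947), Ogn (0.930) and Adamts5 (0.918). Adamts1 and Adamts5 encode secreted proteases and Ogn a small proteoglycan of the matrix. The libraries share groups and base composition effects, and r is given as a description.

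Irs2, on chromosome 8 (10984681 to 11008458, minus strand), had a different order of groups from Irs1. Its CPM were 82.5, 79.9 and 86.9 in Scm and 79.9, 82.4 and 80.6 in Rcm, a log2 fold change of -0.04 with a 95% interval of -0.26 to 0.19. It was at 85.4, 91.7 and 79.4 CPM at S-Rcm 12 h and at 93.3, 79.2 and 83.1 CPM at S-Rcm 24 h, overlapping with both steady groups. At R-Scm 12 h it was at 93.0, 103 and 126 CPM and at R-Scm 24 h at 107, 91.2 and 104 CPM, in all 6 libraries above every library of the steady media. At R-Scm 12 h the log2 fold change against Rcm was 0.41 (SE 0.11), with an adjusted p of 0.0368 under the threshold and a fold change short of it. At 24 h it was 0.32 (adjusted p = 0.238). The difference between the opposite exchanges was 0.37 at 12 h (adjusted p = 0.250) and 0.28 at 24 h (adjusted p = 0.471), neither of them called. Per kilobase, Irs1 was above Irs2 in 1 of 18 libraries, with ratios of 0.492 to 1.05. The substrates Irs3 and Irs4 had at most 3 counts in any library. Irs1 and Irs2 each overlap a gene on the opposite strand (Gm9747 and 9530052E02Rik).

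**Figure D2:**
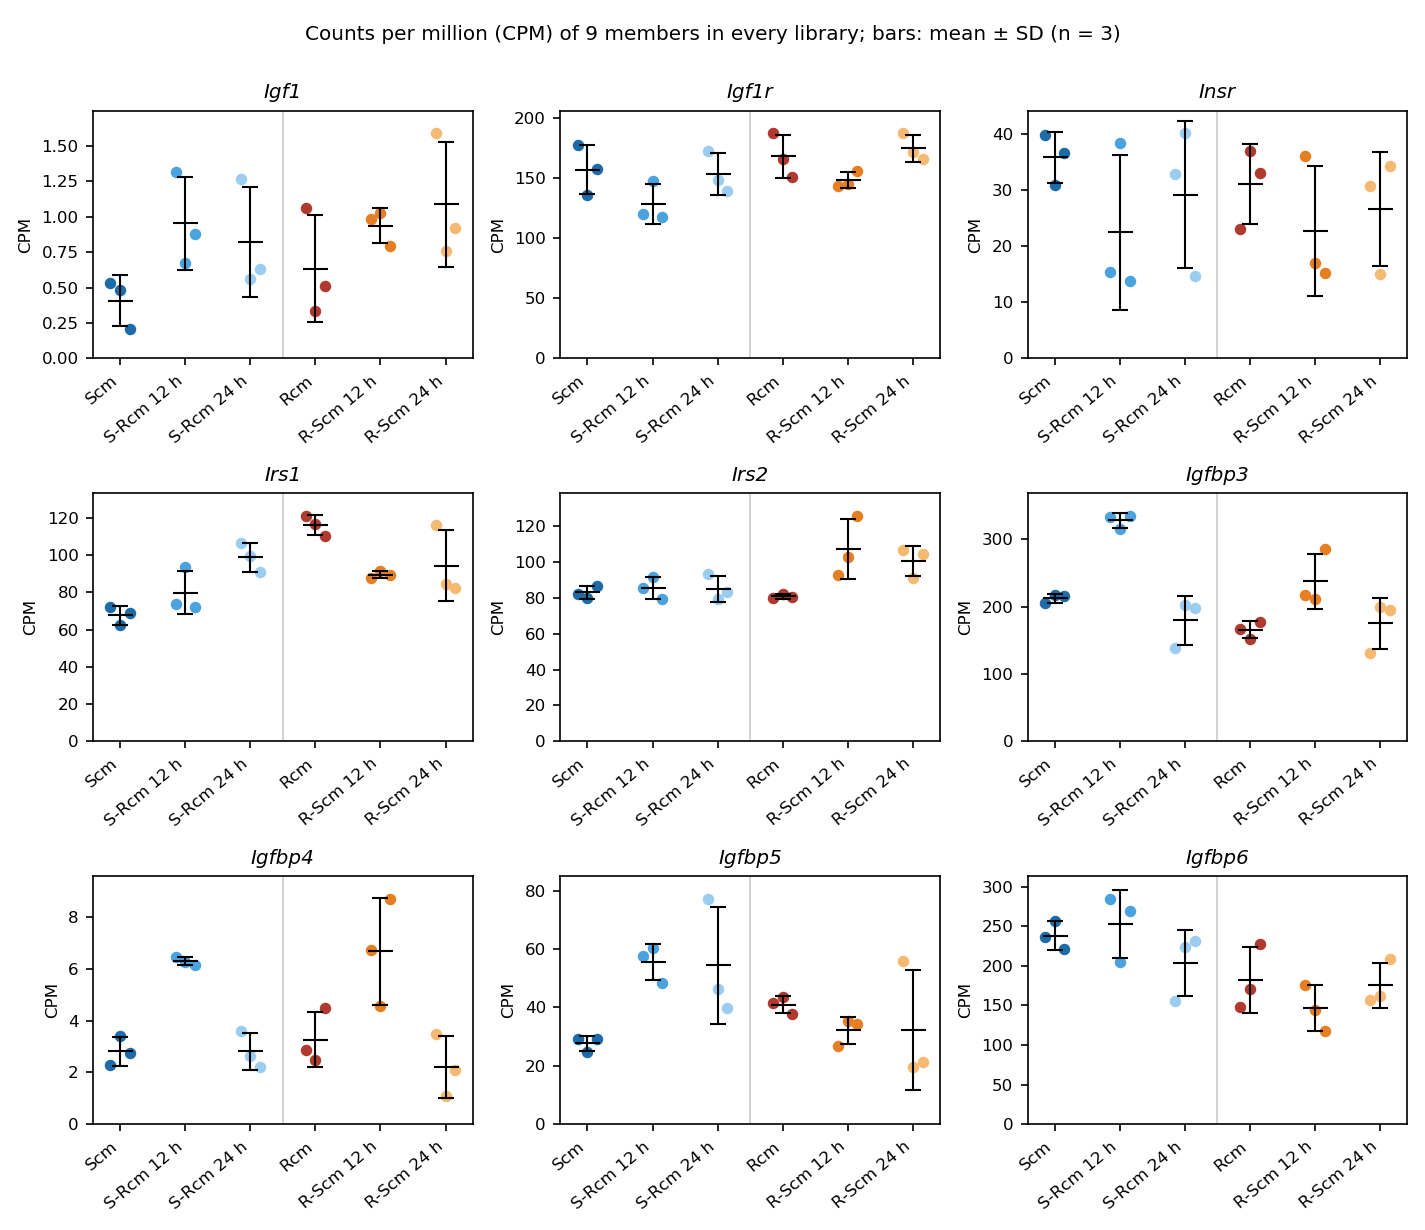
CPM of the 9 members tested in every library, by group, with the mean and SD (n = 3) in black. Points of a group stand in the order of their replicate numbers, and each panel starts at 0. Irs1 does not overlap between Scm and Rcm, Insr splits within each exchange group, and Igfbp3 and Igfbp4 stand higher at 12 h than at 24 h of either exchange.

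Igfbp3 and Igfbp6 were the most abundant binding protein RNAs. Igfbp3, on chromosome 11 (7206086 to 7213923, minus strand), encodes the main IGF carrier of serum. Its CPM were 205, 217 and 215 in Scm and 167, 152 and 177 in Rcm, without overlap, with a log2 fold change of -0.36 in Rcm (adjusted p = 0.281). At S-Rcm 12 h all libraries stood above every other library of the series, at 333, 316 and 335 CPM. At S-Rcm 24 h they were at 138, 203 and 198 CPM, all below Scm. At R-Scm 12 h they were at 218, 211 and 285 CPM, above all of Rcm, and at R-Scm 24 h at 131, 199 and 196 CPM, overlapping with Rcm.

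Between the time points of S-Rcm, Igfbp3 fell by 0.87 on the log2 scale (SE 0.16, adjusted p = 0.0369). It was the 1 of 9 members called in that comparison, beside 0.156% of all genes in either direction and 0.091% lower. This call was lost in each of the 6 fits that left out 1 library (adjusted p 0.0692 to 0.148), with log2 fold changes of -0.96 to -0.71, and in a fit of the compared groups alone (adjusted p = 0.0964). The summed neural markers were at 145 to 162 CPM at S-Rcm 12 h and 109 to 126 CPM at S-Rcm 24 h (87.1 to 93.6 and 70.0 to 71.4 CPM without Sox2), the fibroblast markers at 9909 to 10950 and 11110 to 13980 CPM, and their part in this result was not tested. At 12 h the difference of Igfbp3 from the starting medium did not pass in either exchange. The log2 fold change was 0.63 at S-Rcm 12 h against Scm (SE 0.16, adjusted p = 0.0668) and 0.52 at R-Scm 12 h against Rcm (SE 0.16, adjusted p = 0.0778). In the first of these the replicate block brought the adjusted p to 0.0415 and DESeq2 to 0.0145. The difference between the exchanges at 12 h was -0.10, with a 95% interval of -0.58 to 0.37.

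Igfbp4 had the same order of time points at a far lower level. It lies on chromosome 11 (99041244 to 99054392, plus strand) and encodes a binding protein that inhibits IGF and that the protease PAPPA cuts. It had 43, 49 and 40 counts in Scm and 46, 37 and 88 in Rcm, or 2.30, 3.40 and 2.75 CPM and 2.87, 2.46 and 4.47 CPM. At S-Rcm 12 h it was at 6.46, 6.28 and 6.15 CPM and at R-Scm 12 h at 6.73, 4.58 and 8.71 CPM, all 6 libraries above every library of the other groups. At 24 h it was at 3.61, 2.63 and 2.21 CPM in S-Rcm and 3.48, 1.07 and 2.09 CPM in R-Scm, with 3 of the 6 libraries within the range of the steady groups and 3 below every library of them. Against the starting media the log2 fold change at 24 h was 0.0087 in S-Rcm (adjusted p = 0.999) and -0.57 in R-Scm (SE 0.35, adjusted p = 0.632), and the latter was -1.03 without R-Scm 24 h replicate 1 (adjusted p = 0.122), short of the threshold. From R-Scm 12 h to R-Scm 24 h, Igfbp4 fell by 1.58 on the log2 scale (SE 0.34, adjusted p = 0.0320). It was the 1 of 9 members called there, beside 0.774% of all genes and 0.442% lower. The call was lost without replicate 1 or 3 of R-Scm 12 h (adjusted p = 0.0732 and 0.137), without replicate 2 or 3 of R-Scm 24 h (0.0845 and 0.128) and in the fit of the compared groups alone (adjusted p = 0.396). Leaving out R-Scm 24 h replicate 1 moved it to -2.05 (adjusted p = 0.00466). In S-Rcm the same step was -1.16 (SE 0.33, adjusted p = 0.212). Against the starting media at 12 h the log2 fold changes were 1.17 (SE 0.34, adjusted p = 0.107) in S-Rcm and 1.01 (SE 0.33, adjusted p = 0.0956) in R-Scm, neither of which passed. With DESeq2 both passed, with adjusted p of 0.0296 and 0.0402.

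Igfbp5, on chromosome 1 (72857932 to 72874884, minus strand), encodes a binding protein that attaches to the matrix. Its CPM were 29.2, 24.7 and 29.2 in Scm and 41.6, 43.6 and 37.7 in Rcm, without overlap (log2 fold change 0.56, SE 0.32, adjusted p = 0.398). In S-Rcm it was at 57.6, 60.5 and 48.5 CPM at 12 h and 77.3, 46.2 and 39.9 CPM at 24 h, every library above those of Scm. In R-Scm it was at 26.8, 35.3 and 34.3 CPM at 12 h and 56.0, 19.5 and 21.5 CPM at 24 h, where replicate 1 was the high one. The log2 fold change against Scm was 1.0 at S-Rcm 12 h (SE 0.32, adjusted p = 0.150) and 0.98 at S-Rcm 24 h (SE 0.32, adjusted p = 0.319). Against Rcm it was -0.35 at R-Scm 12 h and -0.34 at R-Scm 24 h (adjusted p = 0.629 and 0.787). When replicate 1 of R-Scm 24 h was left out, the value at 24 h was -0.998 (adjusted p = 0.0175) and the difference between the exchanges at 24 h moved from -1.32 (adjusted p = 0.206) to -1.97 (adjusted p = 7.6e-04), both of them then called. Without replicate 1 of S-Rcm 24 h, at 77.3 CPM, that difference was -0.98 (adjusted p = 0.411).

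Igfbp6, on chromosome 15 (102144362 to 102149511, plus strand), encodes the binding protein that prefers IGF2. Its CPM were 236, 257 and 221 in Scm and 148, 171 and 228 in Rcm. It was at 285, 205 and 269 CPM at S-Rcm 12 h and 155, 225 and 231 CPM at S-Rcm 24 h. In R-Scm it was at 176, 145 and 118 CPM at 12 h and 157, 162 and 208 CPM at 24 h. All neighbours in the order of groups overlapped, and no comparison passed. Its level moved with a property of the libraries. In each library, Spearman's correlation between the GC content of 15360 genes and their deviation from the mean over libraries was computed, and it ran from -0.388 to 0.399. Over 18 libraries Igfbp6, whose exons have 60.7% GC, had a Pearson's r of 0.899 with this trend, Irs1 -0.504 and Igf1r -0.516. The trend was positive in all libraries of Scm and negative in all of R-Scm 12 h. With the trends on GC and length removed, a setting chosen after the data were seen, the log2 fold change of Igfbp6 in Rcm against Scm went from -0.39 to -0.21 and that of Irs1 from 0.78 to 0.72.

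Per kilobase, Igfbp6 was above Igfbp3 in all 18 libraries, by 1.17 to 3.62 times, and Igfbp3 was 3.42 to 19.6 times Igfbp5. Igfbp6 was at 180 ± 42.9 CPM per kilobase and Igfbp4 at 0.909 ± 0.467 (SD, n = 18). Of the other binding proteins, Igfbp1 was at 0 counts in every library, and Igfbp2 and Igfals, the subunit that stabilises IGF in serum, had at most 4 counts. Igfbp7, which binds IGFs weakly, reached 25.7 ± 2.76 CPM in S-Rcm 24 h from 13.3 ± 1.28 CPM in Scm (SD, n = 3), and passed there (log2 fold change 0.95, SE 0.13, adjusted p = 0.00478). The call was lost without Scm replicate 1 (0.89, adjusted p = 0.0597). It was also higher in S-Rcm 24 h than in Rcm (0.75, adjusted p = 0.0239), a call lost in 5 of 6 fits that left out 1 library (0.67 to 0.82, adjusted p up to 0.153).

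In the exchanges as a whole, 0 of the 9 members were called in S-Rcm 12 h or 24 h against Scm, or in R-Scm 12 h or 24 h against Rcm, by edgeR's quasi-likelihood test, while 0.858%, 0.338%, 2.74% and 0.377% of all genes were called. At an unadjusted p under 0.05 there were 5, 2, 4 and 2 members in the same order, beside 14.3%, 8.11%, 17.6% and 10.3% of all genes. DESeq2 called 3 members at S-Rcm 12 h, 1 at R-Scm 12 h and 0 at both 24 h points, beside 1.87% and 3.77% of all genes with an adjusted p at 12 h of S-Rcm and R-Scm, and 0.9% and 1.19% at 24 h. The libraries did not overlap with those of the starting medium in 5 members at S-Rcm 12 h, 4 at S-Rcm 24 h, 5 at R-Scm 12 h and 1 at R-Scm 24 h, beside 26.4%, 19.5%, 23.4% and 11.2% of all genes. Comparisons with the same starting group share its 3 libraries, while the opposite exchanges share none. Rcm against Scm shares libraries with each of these comparisons. The differences between the exchanges at 12 h and at 24 h both use all libraries of Scm and Rcm.

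**Figure D3:**
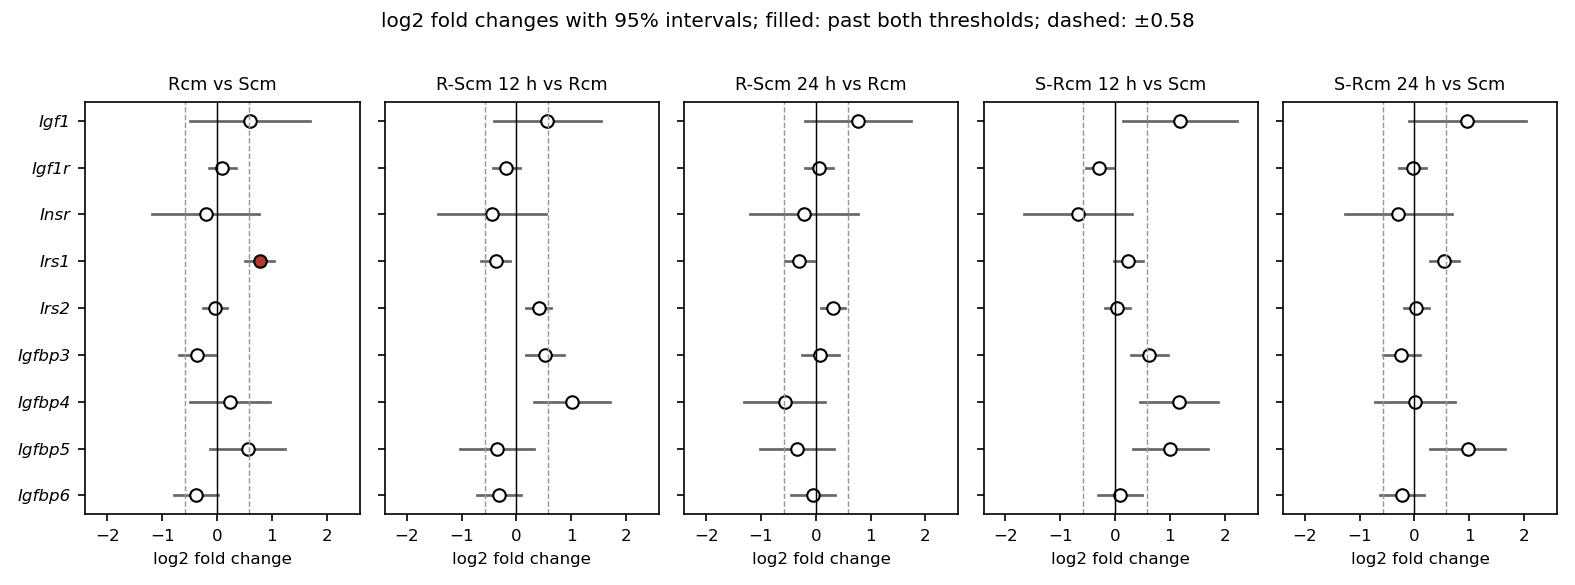
Log2 fold changes of the 9 members tested in Rcm against Scm and in each exchange group against the medium it left, with 95% intervals from the fit of 18 libraries. Dashed lines mark ±0.58 and filled points passed both thresholds. Irs1 in Rcm against Scm, at 0.78, is the filled point, and the intervals of Insr and Igf1 are the widest.

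**Figure D4:**
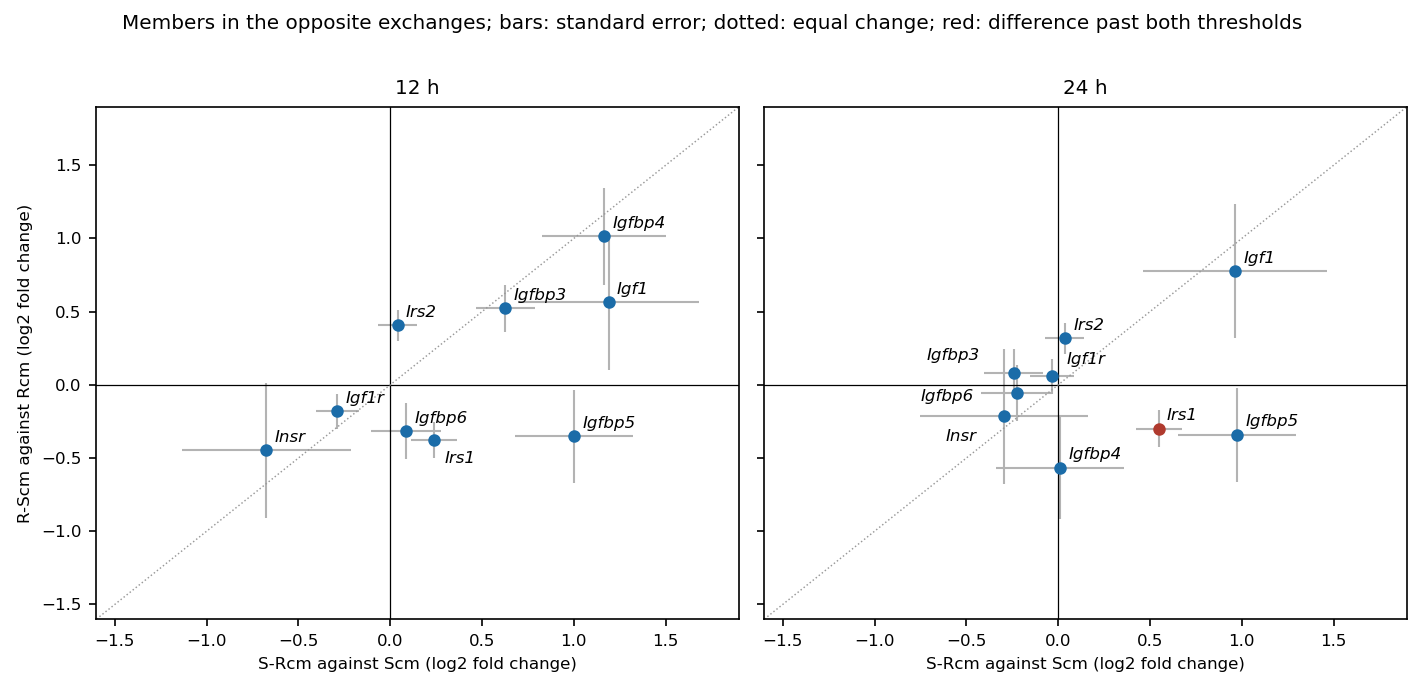
Log2 fold change in S-Rcm against Scm (x axis) and in R-Scm against Rcm (y axis) of the 9 members at 12 h and 24 h, with standard errors. The dotted line marks equal change and red marks a difference between exchanges past both thresholds. At 12 h Igfbp3 and Igfbp4 lie near the dotted line, at 0.63 and 0.52 and at 1.17 and 1.01, and at 24 h Irs1 lies off it, at 0.55 and -0.30.

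Beyond the members, 73 further genes of the axis were listed and 62 were tested. In Rcm against Scm 2 were called (3.23%, beside 2.3% of all genes), both higher and both secreted proteases that can cut binding proteins. Htra1 had a log2 fold change of 0.75 (SE 0.12, adjusted p = 0.00170), and Adamts1, with 91.7 ± 4.39 CPM in Rcm against 33.8 ± 3.03 CPM in Scm (SD, n = 3), of 1.44 (SE 0.19, adjusted p = 4.6e-04). The median log2 fold change of the 8 tested proteases and protease inhibitors was 0.55, against 0.01 for all genes tested. Pappa, the protease of Igfbp4, was at -0.02 (adjusted p = 0.987).

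Adamts1 was called after both exchanges. It was higher in S-Rcm 24 h than in Scm (1.15, SE 0.19, adjusted p = 0.0155) and lower in R-Scm 12 h than in Rcm (-0.72, SE 0.19, adjusted p = 0.0383), and its difference between the exchanges was -1.31 at 12 h and -1.71 at 24 h (adjusted p = 0.0156 and 0.00291). These differences contain, with its sign turned, the 1.44 of Rcm against Scm and are not separate from it. Mean CPM of Adamts1 was 55.6 in R-Scm and 51.0 in S-Rcm at 12 h, and 62.1 and 75.2 at 24 h. With each library left out in turn, the call at S-Rcm 24 h was lost in 4 of 6 fits (0.98 to 1.23, adjusted p up to 0.0867) and that at R-Scm 12 h in 5 of 6 (-0.85 to -0.63, adjusted p up to 0.127). The difference at 12 h was lost without Scm replicate 2 (-1.24, adjusted p = 0.0502). At 24 h it held in all 12 fits and was -2.03 without R-Scm 24 h replicate 1 (adjusted p = 2.8e-05). At R-Scm 12 h, 3 of the 62 genes were called (4.84%, beside 2.74% of all genes). Beside Adamts1 these were Ghr, the growth hormone receptor, at 0.68 (SE 0.17, adjusted p = 0.0313), and Cited2, a transcriptional coregulator and FOXO target, at 0.61 (SE 0.11, adjusted p = 0.00464). Ghr lost its call in 4 of 6 fits that left out 1 library (0.41 to 0.84), the lowest value being without R-Scm 12 h replicate 3, where Cited2 also fell short of the fold threshold (0.56). At S-Rcm 24 h 2 were called (3.23%, beside 0.338% of all genes), Igfbp7 and Adamts1. At S-Rcm 12 h and R-Scm 24 h, 0 of 62 were called, beside 0.858% and 0.377% of all genes.

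Downstream of the receptors, few calls were made. Of the 25 genes of the PI3K-AKT-mTOR list, from Pik3ca and Akt1 to Mtor and Foxo1, 0 were called in Rcm against Scm or in any exchange group against its starting medium, with list medians between -0.11 and 0.02 on the log2 scale. In the same comparisons 0.338% to 2.74% of all genes were called, a share at which lists as short as these would hold few calls or none. Foxo3, a FOXO transcription factor of this list, was called in the difference between the exchanges at 12 h (0.65, SE 0.13, adjusted p = 0.0165), a call lost without Scm replicate 1 (0.59, adjusted p = 0.0555) or R-Scm 12 h replicate 3 (0.53, short of the fold threshold). Akt1, the most abundant of them by CPM, was at 481 to 720 CPM. The adaptor list gave 0 of 5 tested in the same comparisons, and Grb10, an adaptor that inhibits both receptors, was at -0.02 in Rcm against Scm (adjusted p = 0.954). These are levels of RNA and do not measure phosphorylation, through which the pathway signals.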

How the data were processed

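RNA of MEFs was sequenced as paired-end mRNA libraries. The authors aligned the reads to GRCm38 with HISAT2 and deposited a count of reads per gene for 55487 genes in 18 libraries, without normalization. The counting tool, its use of strand and its treatment of reads with several alignments are not given in the sources used here. Libraries were grouped by their titles. Genes were kept by edgeR's filterByExpr (15381 kept, 40106 removed) and scaled by TMM (factors 0.963 to 1.04). A single robust quasi-likelihood fit covered all 18 libraries in 6 groups (12 residual degrees of freedom, biological coefficient of variation 0.173). Log2 CPM used a prior count of 2. Adjusted p are Benjamini-Hochberg over all genes tested. Intervals cover 95%. The fit was tested on simulated counts. The tools were edgeR 4.0.16 and limma 3.58.1 under R 4.3.3, with DESeq2 1.42.0 as an alternative, and figures came from matplotlib 3.10.9 under Python 3.11.15. Exon lengths and gene positions came from the GENCODE annotation and promoters from RefSeq.

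The members, lists, comparisons and thresholds were chosen with earlier results of these data known. The rule named every member, the other axis genes called in at least 1 of the 5 comparisons with a starting or steady group (at most 3 a list), and for members called there the 3 genes most alike over libraries. Igf2r, Insrr, Irs3, Irs4, H19, Ins1, Ins2, Igfbp1, Igfbp2, Igfals, Pappa, Grb10 and Akt1 are named beside them for their roles, after their values were seen. Alternatives were RLE scaling, no filter, a replicate block (by the numbers in the titles or in the count table), DESeq2, a fit of the compared groups alone, each library left out in turn and removal of trends on GC content and exon length. Replicate numbers did not clearly pair the libraries. The labels give no batch or date.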

Additional observations from a re-analysis of the deposited data

Results flagged for a closer look

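For Irs1, the changes in the opposite exchanges differed from each other at 24 h. The change in R-Scm 24 h against Rcm minus that in S-Rcm 24 h against Scm was -0.85 on the log2 scale (SE 0.18, adjusted p = 0.0228, edgeR's quasi-likelihood test), from a log2 fold change of -0.30 in the first and 0.55 in the second. The call was lost in 8 of 12 fits that left out 1 library (adjusted p 0.0541 to 0.0872) and in a fit of the compared groups alone (adjusted p = 0.0540). Of the R-Scm 24 h libraries 2 of 3 were below all of Rcm, and 3 of 3 S-Rcm 24 h libraries were above all of Scm. The difference contains, with its sign turned, that of Rcm against Scm (0.78), so it is not separate from that result. R-Scm 24 h and S-Rcm 24 h themselves had means of 94.4 and 99.0 CPM.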

How the results depend on the processing

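Over the 8 kinds of alternative, Irs1 in Rcm against Scm kept its call, with adjusted p of 2.7e-06 to 0.0195. DESeq2 in place of edgeR raised the genes called from 58 to 161 (R-Scm 24 h against Rcm), 132 to 270 (S-Rcm 12 h against Scm), 52 to 133 (S-Rcm 24 h against Scm), 119 to 230 (R-Scm 24 h against 12 h), 24 to 92 (S-Rcm 24 h against 12 h), 91 to 187 (R-Scm 24 h against Scm), 34 to 108 (S-Rcm 24 h against Rcm), and 312 to 486 and 211 to 401 (difference of exchanges at 12 h and 24 h). It called 1 member in R-Scm 12 h (Igfbp4), 3 in S-Rcm 12 h (Igfbp3, Igfbp4 and Igfbp5) and 1 in the difference at 12 h (Irs1). A fit of the compared groups alone gave 237 genes in R-Scm 12 h (421 before), 4 in R-Scm 24 h, 260 in S-Rcm 12 h, 90 in S-Rcm 24 h, 2 in R-Scm 24 h against 12 h and 35 in R-Scm 24 h against Scm. It called 0 members in both steps from 12 h to 24 h and in the difference at 24 h, 3 in S-Rcm 12 h (Igfbp3, Igfbp4 and Igfbp5) and 2 in the difference at 12 h (Irs1 and Igfbp5). Removing the trends on GC content and exon length, chosen after the data were seen, gave 104 genes in R-Scm 24 h, 211 in S-Rcm 12 h, 86 in S-Rcm 24 h, 38 in S-Rcm 24 h against 12 h and 327 in the difference at 24 h. It turned Irs2 to 0.022 in Rcm against Scm and to -0.0293 in S-Rcm 12 h. The cause of these changes was not tested.

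With the replicate number as a block, 1 member was called in S-Rcm 12 h (Igfbp3), the genes called in R-Scm 24 h against Scm went from 91 to 59, and Igfbp4 in S-Rcm 24 h turned to -0.0104. That block changed no other member's call. The numbers did not clearly pair the libraries. Over 45 pairs with the same number the correlation of deviations from the group means ran from -0.196 to 0.346 (median -0.0187), with 11 over 0.1. Over 90 pairs with different numbers the correlation ran from -0.269 to 0.212 (median 0.00227), with 16 over 0.1. Of the 18 libraries, 7 were most like a library of their own number. The names in the count table give 6 libraries another number than their titles. By those numbers, chosen after the data were seen, 36 pairs had correlations of -0.208 to 0.165, with 7 over 0.1, and 3 of 18 libraries were most like their own number. A replicate block by them gave 270 genes in R-Scm 12 h, 20 in R-Scm 24 h, 11 in S-Rcm 24 h, 47 in R-Scm 24 h against Scm, 0 in S-Rcm 24 h against Rcm and 173 in the difference at 12 h. It called 1 member in S-Rcm 12 h (Igfbp3) and 0 in R-Scm 24 h against 12 h (Igfbp4, adjusted p = 0.0606), and turned Insr to 0.132 and Igfbp3 to -0.0576 in R-Scm 24 h and Igfbp4 to -0.0476 in S-Rcm 24 h.

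With each library left out in turn, the genes called ranged from 178 to 574 in Rcm against Scm, 275 to 420 in R-Scm 12 h, 14 to 501 in R-Scm 24 h, 36 to 76 in S-Rcm 12 h, 6 to 28 in S-Rcm 24 h, 57 to 309 and 8 to 16 from 12 h to 24 h of R-Scm and S-Rcm, 17 to 92 in R-Scm 24 h against Scm, 0 to 38 in S-Rcm 24 h against Rcm, and 176 to 289 and 120 to 761 in the differences at 12 h and 24 h. The highest value in the comparisons of R-Scm 24 h with Rcm and with R-Scm 12 h, and in the difference at 24 h, came without R-Scm 24 h replicate 1. In Rcm against Scm it came without Rcm replicate 3. Members called ranged from 0 to 1 in R-Scm 24 h against Rcm (Igfbp5 without R-Scm 24 h replicate 1), 0 to 1 in R-Scm 24 h against 12 h, were 0 in S-Rcm 24 h against 12 h, and ranged from 0 to 2 in the difference at 24 h. Directions that turned belonged to values that were not called. Igfbp4 ranged from -0.0839 to 0.395 in Rcm against Scm, from -0.21 to 0.16 in S-Rcm 24 h and from -0.39 to 0.16 in the difference at 12 h. In R-Scm 24 h, Igf1r ranged from -0.0048 to 0.14, Insr from -0.414 to 0.0654, Igfbp3 from -0.0168 to 0.254 and Igfbp6 from -0.18 to 0.15. In S-Rcm 12 h, Irs2 ranged from -0.0193 to 0.0921 and Igfbp6 from -0.00661 to 0.212, and in S-Rcm 24 h Igf1r ranged from -0.128 to 0.0626, Insr from -0.594 to 0.0263 and Irs2 from -0.0341 to 0.0859. Igf1 and Igfbp4, at 3 to 142 counts per library, had the least depth behind them.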

Other observations

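Genes outside the naming rule whose log2 CPM followed a member most closely over the 18 libraries were chosen after their values were seen and are given as a description. For Igfbp4 the closest of 13534 genes was Pdia4, a chaperone of the endoplasmic reticulum (Pearson's r 0.887). For Igfbp3 it was Blnk (0.881), with Srxn1, which encodes sulfiredoxin, at the same value. For Igfbp5 it was Plat, the gene of tissue plasminogen activator (0.879), for Irs2 Tll1 (0.914), for Igf1r Utrn (0.948) and for Igfbp6 Aldh16a1 (0.960). For Insr, the gene that varied most within groups among members above 10 CPM, the closest was R74862, at 0.785, the second lowest of these best values after that of Igf1 (0.773 with Gm28035).

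In the growth hormone list, the difference between the opposite exchanges at 12 h was called for Socs2, a feedback inhibitor of growth hormone signalling (3.08, SE 0.71, adjusted p = 0.0298), and Jak2, the kinase of the receptor (0.87, SE 0.18, adjusted p = 0.0182). Socs2 had 6 to 98 counts per library, and at R-Scm 12 h it ran from 1.59 to 6.01 CPM. Without R-Scm 12 h replicate 3 the difference of Socs2 was 2.19 (adjusted p = 0.0596), and its call was lost in 7 of 12 fits that left out 1 library, that of Jak2 in 3. In the same comparison 5 of 62 axis genes were called in all (8.06%, beside 2.03% of all genes), the others being Foxo3, Htra1 and Adamts1. Of these, Htra1 and Adamts1 had also been called in Rcm against Scm, whose libraries this comparison uses. The call of Htra1 at 12 h (-0.70, adjusted p = 0.0353) was lost in 11 of 12 fits that left out 1 library (-0.85 to -0.60, adjusted p up to 0.0922). The difference of Htra1 at 24 h, which uses the libraries of Rcm and Scm as well, was -0.89 (adjusted p = 0.0110). It held in all 12 fits. At 24 h Trib1, a listed FOXO target, was called at 0.86 (adjusted p = 0.0217), a value of 1.01 without R-Scm 24 h replicate 1 (adjusted p = 3.4e-04). The call of Trib1 was lost in 8 of the 12 fits that left out 1 library (adjusted p up to 0.0719). Grb14, an adaptor that inhibits the insulin receptor, was higher in R-Scm 24 h than in Scm (1.06, SE 0.23, adjusted p = 0.0498). Its call was lost in each of 6 fits that left out 1 library (0.83 to 1.23, adjusted p 0.0651 to 0.265), R-Scm 24 h replicate 1 among them (1.13, adjusted p = 0.0651). Adamts1 was also called higher there (0.88, SE 0.19, adjusted p = 0.0498), a call lost in 4 of 6 such fits. Without R-Scm 24 h replicate 1 the value of Adamts1 was 0.56 (adjusted p = 0.134). These were 2 of the 62 axis genes tested (3.23%, beside 0.592% of all genes).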
